A study of Mus musculus with 6 samples.

Results

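The data compare the interstitial cells of the mouse heart 1 day after a coronary artery was tied (the left anterior descending branch) with those of hearts 1 day after a sham operation, in wild-type (WT) animals. Cells were taken by rule: every barcode of the 2 WT 24 h libraries with at least 200 detected genes and at most 20% of its UMIs from mitochondrial genes. This gave 8998 of 9594 deposited barcodes, of 33738 of 34940 in the whole series. The series holds 6 libraries, 1 per group, from WT mice and from mice lacking the ion channel gene Trpm4 (KO), each as sham 24 h, ligation 24 h and ligation 72 h. Each library pooled 4 C57BL/6JRj male mice of 8 to 12 weeks. Hearts were digested with thermolysin and papain and passed through meshes, and live nucleated non-cardiomyocytes were sorted with Calcein-AM and DAPI before 3′ capture on a 10x Chromium. Both WT groups therefore share anaesthesia, chest surgery, digestion and sorting, and differ in the ligation. With 1 pooled library a group there is no replicate, and no test of the operation was possible. Intervals are 95% intervals that cover counting error only, and differences between the 2 pools, between mice and between operations cannot be told apart.

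A coronary ligation stops blood flow to the wall of the left ventricle. Neutrophils and then monocytes enter the injured wall, cardiomyocytes die, and fibroblasts, endothelial cells and mural cells (pericytes and smooth muscle) survive at its border with little oxygen. Cells short of oxygen stabilise HIF transcription factors, which raise glucose uptake, glycolysis and angiogenic factors. Cells that resume growth raise ribosome assembly, and metallothioneins bind zinc and other metals in stressed cells. The circadian clock runs in most of these cells: the CLOCK and BMAL1 (Arntl) proteins drive Dbp, the Per genes and Nr1d1, which peak together and opposite to Arntl.

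Genes of 3 such groups carried results described below, so promoters of members of each are shown first: the 250 bases before the RefSeq start site, on the gene's strand, build GRCm38.p6. Capitals mark matches, on either strand, to the letters CACGTG (E-box, bound by clock proteins) in Ciart, TTANGTAA (D-box, bound by DBP and its relatives) in Per3, TGCACNC (metal response core) in Mt1 and Mt2, and ACGTG (hypoxia response core) in Hk2 and Bnip3. The letters ACGTG also lie inside CACGTG, once on each strand, so those 2 motifs overlap.
Ciart (chr3:95882229-95882478, minus strand): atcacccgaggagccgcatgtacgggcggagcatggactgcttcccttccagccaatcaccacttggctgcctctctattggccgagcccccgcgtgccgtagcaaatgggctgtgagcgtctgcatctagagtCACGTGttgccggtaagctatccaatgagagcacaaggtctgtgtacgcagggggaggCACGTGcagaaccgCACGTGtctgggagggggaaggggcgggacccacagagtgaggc
Per3 (chr4:151044666-151044915, minus strand): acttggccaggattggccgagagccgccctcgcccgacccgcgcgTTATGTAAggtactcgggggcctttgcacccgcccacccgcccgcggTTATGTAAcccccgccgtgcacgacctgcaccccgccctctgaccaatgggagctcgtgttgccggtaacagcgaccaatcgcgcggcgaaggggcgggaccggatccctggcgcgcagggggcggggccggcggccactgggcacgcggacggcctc
Mt1 (chr8:94178839-94179088, plus strand): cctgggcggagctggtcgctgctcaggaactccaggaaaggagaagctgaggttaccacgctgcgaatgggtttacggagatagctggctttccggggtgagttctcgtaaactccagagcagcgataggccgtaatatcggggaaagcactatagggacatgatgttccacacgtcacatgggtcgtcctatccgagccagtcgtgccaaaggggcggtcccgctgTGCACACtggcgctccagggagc
Mt2 (chr8:94172368-94172617, plus strand): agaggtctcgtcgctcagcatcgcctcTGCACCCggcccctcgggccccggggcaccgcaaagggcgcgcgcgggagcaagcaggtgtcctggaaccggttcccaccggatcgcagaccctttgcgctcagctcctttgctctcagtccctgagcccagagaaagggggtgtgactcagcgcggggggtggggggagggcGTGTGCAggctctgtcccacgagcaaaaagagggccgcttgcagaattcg
Hk2 (chr6:82774455-82774704, minus strand): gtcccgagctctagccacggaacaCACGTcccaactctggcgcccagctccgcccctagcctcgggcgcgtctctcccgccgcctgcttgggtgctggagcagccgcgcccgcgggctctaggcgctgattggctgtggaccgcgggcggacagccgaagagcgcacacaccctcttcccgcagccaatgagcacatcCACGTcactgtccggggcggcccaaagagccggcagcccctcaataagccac
Bnip3 (chr7:138909507-138909756, minus strand): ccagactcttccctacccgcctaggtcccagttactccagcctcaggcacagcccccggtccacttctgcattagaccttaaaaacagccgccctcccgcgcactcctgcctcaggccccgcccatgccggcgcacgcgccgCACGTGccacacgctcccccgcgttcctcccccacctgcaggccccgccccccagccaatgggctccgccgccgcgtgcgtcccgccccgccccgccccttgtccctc
Ciart holds 3 E-boxes, Per3 holds 2 D-boxes, Mt2 holds 2 matches to TGCACNC and Mt1 1, and Hk2 holds 2 hypoxia cores. Only the letters TGCACNC were searched for the metal core, so other forms of it are neither marked nor counted. The 2 matches in Bnip3 are the opposite strands of 1 CACGTG. The promoters used numbered 32851, after 1 chromosome and repeated entries of the table were left out. Over all of these, CACGTG was present in 6.02%, TTANGTAA in 2.06%, TGCACNC in 10.4% and ACGTG in 16.6%. Of the clock list, 9 of 10 genes matched the table with 11 promoters, and 45.5% of these held CACGTG. Of the hypoxia and glycolysis list, 26 of 28 genes matched with 36 promoters, and 50% held ACGTG. Of the antioxidant and metal list, 15 of 19 genes matched with 19 promoters, and 15.8% held TGCACNC. The clock promoters held TGCACNC in 27.3% and ACGTG in 63.6%, so both were more frequent there than in the lists shown for them. TTANGTAA was in 9.09% of clock, 2.78% of hypoxia and 0% of metal promoters. CACGTG was in 8.33% of hypoxia and 0% of metal promoters. A match describes the letters in this window and shows no binding.

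The sham library held 5969 barcodes and 34691228 UMIs as deposited, and the ligation library 3625 barcodes and 23180056 UMIs. After the rule, 5532 and 3466 barcodes remained. Barcodes with the highest doublet scores, in a number set by an expected rate, were then set aside, 277 and 104 of those remaining. The automatic threshold of the doublet method called 52 and 8 of the deposited barcodes. The kept cells were 5255 sham and 3362 ligation cells, with a median of 3725 and 4176 UMIs. The median mitochondrial share was 3.36% in sham and 1.80% in ligation. The 2 libraries shared 6 barcodes, 5 of them among the kept cells. No cell annotation was used from the files, so cells of the 24 h and 72 h libraries were clustered together and clusters were named by markers. Class names are therefore rebuilt, and the genes that lead a cluster are not results. Levels are UMIs summed over the cells of a class in 1 library, scaled to a total of 1000000 UMIs (CPM), and are given for sham and then ligation. A ratio is ligation over sham. A gene was counted as higher or lower when its level differed at least 2-fold with at least 50 UMIs over both libraries, and "measured" means at least 50 UMIs.

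Neutrophils took a larger share of the cells after ligation and endothelial cells a smaller one. Neutrophils numbered 882 of the sham cells (16.8%) and 1147 of the ligation cells (34.1%), which is 17.3 points more (15.4 to 19.2). Of the endothelial cells there were 2339 (44.5%) and 737 (21.9%), which is -22.6 points (-24.5 to -20.6). Monocytes and macrophages together kept nearly the same share, 20.1% and 20.02%, a difference of -0.077 points (-1.80 to 1.67), but of leukocytes alone they were 49.4% and 32.5%, or -16.9 points (-19.8 to -14.0). Within them, cells of the resident macrophage subset (Lyve1, Folr2 and Cd163 among its leading genes) were 21.1% in sham and 9.51% in ligation, or -11.6 points (-14.9 to -8.21). The sort, the digestion and the growth of 1 class set the share of every other one, and shares of cells and numbers of cells per heart cannot be told apart. When cells were held to at most 10% mitochondrial UMIs, a limit that takes many endothelial cells (median mitochondrial share 10.3% in sham and 6.35% in ligation), the endothelial difference was -11.36 points and the monocyte and macrophage difference -4.6 points.

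The small classes moved in different directions. B cells were 14 of the sham cells (0.266%) and 110 of the ligation cells (3.27%), 12.3 times the share, and of leukocytes alone they went from 0.655% to 5.31%. T cells, a cluster that also holds cytotoxic lymphocytes, were 24 (0.457%) and 75 (2.23%), a ratio of 4.88, and of leukocytes alone 1.12% and 3.62%. In the KO pair the shares of leukocytes were 2.39% and 2.43% for B cells and 1.65% and 1.66% for T cells. Platelet barcodes were 72 (1.37%) and 175 (5.21%), a difference of 3.84 points (3.05 to 4.69). These barcodes are shallow, with a median of 633.5 and 656 UMIs, and with at least 1000 UMIs per barcode the difference was 0.85 points. Dendritic cells were 160 (3.04%) and 65 (1.93%), a difference of -1.11 points (-1.76 to -0.433).

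Among stromal cells alone, so without leukocytes and platelets, pericytes and fibroblasts took a larger share after ligation and smooth muscle did not, while of all kept cells each of the 3 took a smaller or similar share. Pericytes, the contractile cells on capillaries, were 85 and 50 cells, 2.83% and 4.68% of stromal cells, a difference of 1.85 points (0.564 to 3.39). Smooth muscle cells were 156 and 53, 5.19% and 4.96%, a difference of -0.225 points (-1.66 to 1.42). Fibroblasts were 376 and 202, 12.5% and 18.9%, a difference of 6.41 points (3.86 to 9.12). Of all kept cells, fibroblasts were 7.16% and 6.01%, smooth muscle 2.97% and 1.58% and pericytes 1.62% and 1.49%. With at most 10% mitochondrial UMIs, the differences among stromal cells were 1.85 points (-1.44 to 5.26) for fibroblasts and 1.04 points (-0.625 to 2.93) for pericytes. Lymphatic endothelial cells were 41 and 17, 1.36% and 1.59%. Barcodes led by cardiomyocyte genes such as Myl2 and Tnnt2 numbered 30 and 14, although the sort was for non-cardiomyocytes, and mesothelial cells numbered 10 and 9.

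**Figure D1:**
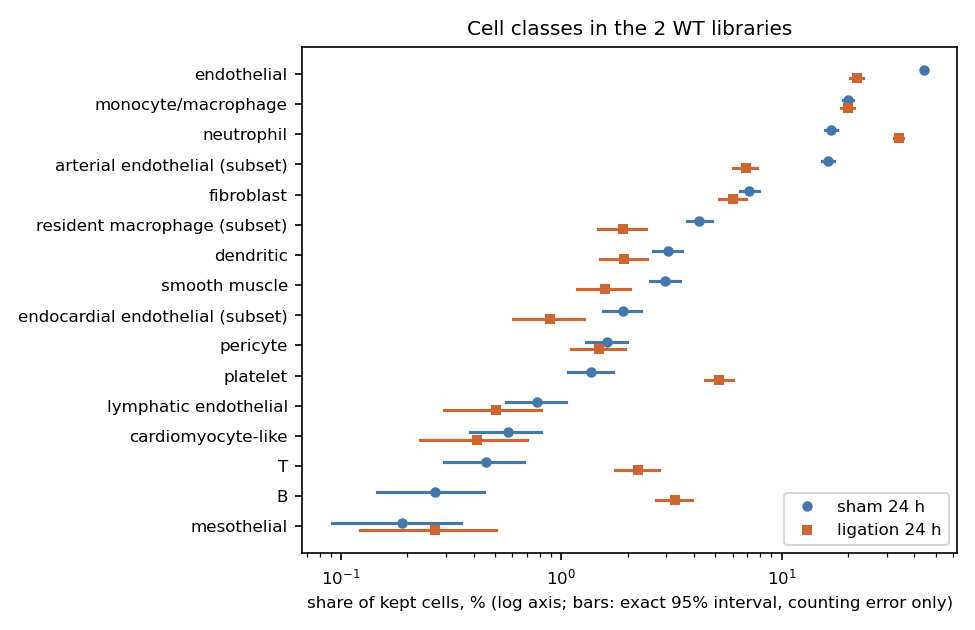
Share of each cell class among kept cells of the WT sham 24 h and WT ligation 24 h libraries, in percent on a log axis, with exact 95% binomial intervals (counting error only). Neutrophils moved from 16.8% to 34.1%, endothelial cells from 44.5% to 21.9% and B cells from 0.266% to 3.27%, while monocytes and macrophages stayed at 20.1% and 20.02%.

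In endothelial cells the higher genes included a vascular growth factor, a receptor of proteolysis and a cell cycle inhibitor. Of 10006 genes measured, 371 (3.71%) were higher and 240 (2.4%) lower, with a median log2 ratio of 0.03 over all of them. Pgf, placental growth factor, a ligand of the VEGF receptor FLT1, was at 10.3 and 239.8 CPM, a ratio of 23.2 (18.6 to 29.2). Plaur, the urokinase receptor, was at 19.4 and 205 CPM, a ratio of 10.6 (8.92 to 12.6). Cdkn1a, the cell cycle inhibitor p21, was at 101 and 869 CPM, a ratio of 8.64 (8.01 to 9.33). In the arterial subset it was at 103 and 968 CPM. The KO ratio was 2.87, from 272 CPM in KO sham. Transcripts of the leukocyte list took 0.108% of endothelial UMIs in sham and 0.125% in ligation.

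Secreted factors, early-response genes and RNA-binding proteins followed. Angptl4, an inhibitor of lipoprotein lipase, was at 24.8 and 144 CPM, a ratio of 5.82 (4.95 to 6.88). Edn1, the vasoconstrictor endothelin-1, was at 34.7 and 146 CPM. Ccn1, a matricellular protein, was at 34.6 and 187 CPM. These are secreted proteins, and intracellular ones were also among the 12 genes named as higher. Ddx21, an RNA helicase of the nucleolus, was at 40.2 and 203 CPM, and Pabpc1, the poly(A)-binding protein, at 173 and 523 CPM. The others were the microRNA host gene AA467197, at 15.2 and 237 CPM, and Emp1, Apold1 and Gadd45g, with ratios of 3.54, 3.19 and 3.08.

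The lower endothelial genes were led by clock output genes and by Aplnr, the apelin receptor. Dbp was at 368 and 30.4 CPM, a ratio of 0.0827 (0.0669 to 0.101). Nr1d1 was at 198 and 59.9 CPM and Nr1d2 at 101 and 35.7 CPM. Aplnr was at 156 and 44.1 CPM, a ratio of 0.282 (0.236 to 0.336), while its ligand Apln was at 12.97 and 122 CPM, so ligand and receptor differed in opposite directions. The other 4 named lower genes were Ephx1, a microsomal epoxide hydrolase, at 197 and 72.98 CPM, and Gstt2, Ankrd12 and the matricellular gene Sparcl1, with ratios of 0.427, 0.4401 and 0.479.

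Part of the endothelial result came from 1 cluster led by Apln, Pgf and Ccn1, which held 60 of 2339 sham and 153 of 737 ligation cells. Without it, 185 genes (1.88%) were higher instead of 371, and 190 (1.93%) lower instead of 240. Pgf was then at 3.22 and 14.2 CPM, Plaur at 17.3 and 69.6 CPM and Ccn1 at 31.1 and 54.5 CPM. Cdkn1a at 88.5 and 745 CPM, Angptl4 at 23.8 and 123 CPM and Dbp at 379 and 36.2 CPM differed nearly as much as in all endothelial cells. Within the cluster itself Pgf was at 199 and 965 CPM and Plaur at 75.8 and 642 CPM, so the cluster differed between the libraries both in size and in level.

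Endothelial gene lists for growth and stress were shifted together. Of 19 measured genes for ribosome assembly, 13 were higher and none lower, with a median log2 ratio of 1.13, among them Nop58, a box C/D ribonucleoprotein, at 31.8 and 96.9 CPM. Of 28 hypoxia and glycolysis genes, 10 were higher and none lower, with a median of 0.70. The glucose transporter Slc2a1 was at 5.395 and 41.9 CPM, the lactate exporter Slc16a3 at 4.02 and 33.2 CPM, phosphoglycerate kinase Pgk1 at 69.8 and 171 CPM and adrenomedullin (Adm) at 19.97 and 61.2 CPM. Of 17 heat shock genes 5 were higher, with Hsp90aa1 at 123 and 343 CPM. The near-identical copies Hspa1a, at 11.2 and 282 CPM, and Hspa1b, at 3.903 and 215 CPM, cannot be separated with certainty by their 3′ reads. Without the Apln-led cluster 1 of 26 hypoxia genes, 2 of 18 ribosome assembly genes and 3 of 17 heat shock genes were higher, with medians of 0.40, 0.46 and 0.54.

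Notch and BMP pathway genes of endothelial cells stayed within 2-fold, and some adhesion genes were higher. Of 16 measured Notch pathway genes and 13 genes of the BMP and ID group, none was higher or lower. Over all endothelial genes 3.71% were higher and 2.4% lower, so lists of this size would hold few such genes in any case. Notch1 was at 169 and 189 CPM, its ligand Dll4 at 104 and 134 CPM and Id1 at 832 and 977 CPM. Of 12 leukocyte adhesion genes 3 were higher and none lower, with a median of 0.30. P-selectin (Selp) was at 14.3 and 90.99 CPM and Icam1 at 53.03 and 118 CPM. Vcam1, at 118 and 167 CPM, stayed within 2-fold. The tight junction gene Cldn5 was at 393 and 961 CPM.

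Fatty acid handling is a main task of cardiac capillaries, and its list also holds capillary genes of other functions, among them Car4, Timp4 and Aqp1. Of its 20 measured genes, 2 were higher over all endothelial cells. In the arterial subset (852 and 231 cells) 6 of 18 were higher and none lower, where 1.66% of all genes were higher and 2.06% lower, with a median of 0.60 beside 0.00 over all genes. Gpihbp1, which anchors lipoprotein lipase, was at 1335 and 3016 CPM. Lipoprotein lipase itself (Lpl) was at 511 and 1143 CPM, and its inhibitor Angptl4 at 19.1 and 111 CPM. The anchor, the enzyme and the inhibitor were thus all higher, and so were carbonic anhydrase Car4, Timp4 and the water channel Aqp1, with ratios of 2.74, 3.03 and 2.04. The fatty acid transporter Cd36, at 3620.2 and 7046 CPM, lay just under 2-fold. A change in which cells fell into the subset and a change in level cannot be told apart. Outside that subset, an endothelial cluster led by Rflnb and Rhoc held 204 and 103 cells, which were shallow, with a median of 1370 and 911 UMIs. There Timp4, Gpihbp1, Car4 and Lpl had ratios from 1.87 to 2.19, and Cd36 and Fabp4 had 1.35 and 1.57. Others lay below 1, among them Aqp1, Fabp5, Tcf15 and Meox2, with 0.951, 0.790, 0.600 and 0.691. The largest endothelial cluster, led by Aqp1 and Timp4, held 1123 and 220 cells and is not described here.

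Genes that peak with Dbp were lower in every large stromal class and in macrophages. In endothelial cells 9 of 10 were lower, with a median log2 ratio of -1.95. Hlf and Tef, PAR bZIP factors like Dbp, were at 49.2 and 3.42 CPM and at 98.4 and 21.7 CPM. Per3 was at 80.2 and 13.98 CPM. Ciart, a repressor of the clock, was at 9.41 and 3.11 CPM. Per1, also an immediate stress gene, was the exception, at 29.3 and 43.2 CPM. Arntl, which peaks opposite, was at 4.36 and 24.2 CPM, and its partner Clock at 61.8 and 65.2 CPM. In the endocardial subset 6 of 6 were lower (median -1.62), where 5.11% of all genes were. In the arterial subset it was 8 of 9 (median -2.33).

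The same genes were read in the other classes. Dbp was at 174 and 30.99 CPM in fibroblasts, 15.9 and 1.27 CPM in monocytes and macrophages, 527 and 63.1 CPM in pericytes and 201 and 19.9 CPM in smooth muscle. Of the list, 6 of 9 measured genes were lower in fibroblasts (median -1.21), 6 of 7 in monocytes and macrophages (median -2.44), 3 of 3 in pericytes and 6 of 7 in smooth muscle (median -1.34), where 1 was higher. Without the 6 smooth muscle cells with leukocyte RNA described below it was 5 of 6 (median -1.21). Without the Cxcl5-led cluster of fibroblasts described below it was 3 of 8 (median -0.83). In the resident macrophage subset 4 of 5 were lower (median -3.50), where 4.54% of all genes were. The time of day at which hearts were taken is not given in the sources used here. The operation and the time of day cannot be told apart.

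Across the 6 libraries the endothelial level of Dbp was highest in WT sham 24 h, at 368 CPM. It was 30.4 in WT ligation 24 h and 42.1 in WT ligation 72 h, and 60.8, 13.9 and 31.4 in KO sham 24 h, ligation 24 h and ligation 72 h. Nr1d1 was at 198, 59.9 and 28.3 CPM in the WT libraries and at 108, 45.9 and 22.5 in the KO libraries, in the same order. Arntl was lowest in WT sham 24 h, at 4.36 CPM, and was at 24.2 and 11.3 in the WT ligation libraries and at 22.9, 22.7 and 8.04 in the KO libraries. The WT sham library thus stands apart from the KO sham library in these genes, and the WT ratios rest on it.

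**Figure D2:**
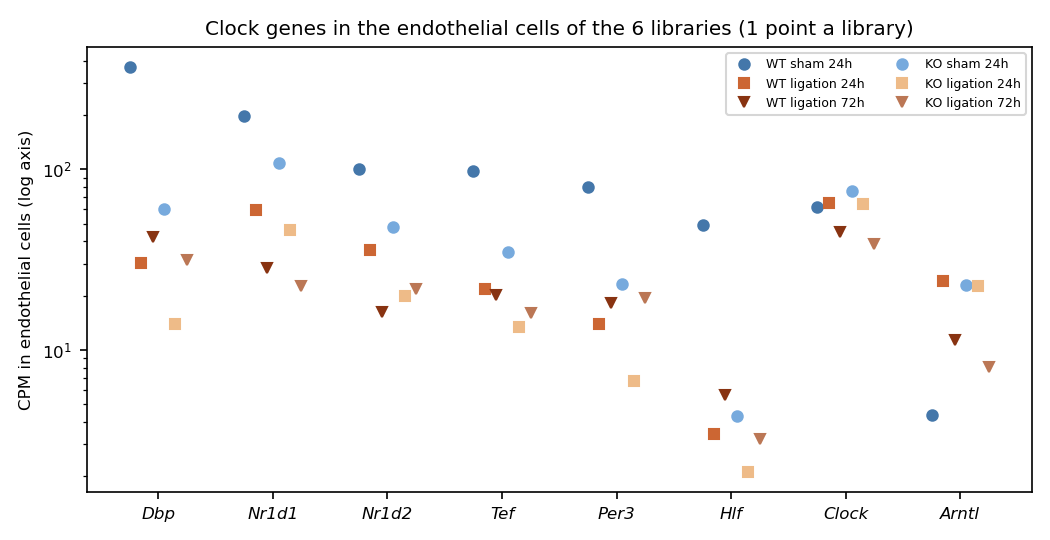
Levels of clock genes in the endothelial cells of the 6 libraries, in CPM on a log axis, 1 point per library. WT sham 24 h is highest for Dbp, at 368 CPM, and lowest for Arntl, at 4.36 CPM, and the KO ligation 24 h library is lowest for Dbp, at 13.9 CPM.

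In fibroblasts, metallothioneins and growth regulators were higher and fibrillar collagen was lower. Of 9334 genes measured, 451 (4.83%) were higher and 397 (4.25%) lower, with a median log2 ratio of -0.05. Mt1 was at 1348 and 5045 CPM, a ratio of 3.74 (3.63 to 3.86). Mt2 was at 471 and 2499 CPM, a ratio of 5.31 (5.05 to 5.59). Angiogenic and glycolytic genes were among those named as higher: Vegfa was at 31.6 and 144 CPM, Angptl4 at 83.2 and 355 CPM and hexokinase Hk2 at 28.1 and 173 CPM. Of growth regulators, Myc was at 20.3 and 102 CPM and Tnfrsf12a, the receptor of TWEAK, at 54.6 and 253 CPM. The matricellular gene Ccn2, the cholesterol hydroxylase Ch25h, Ddx21 and the small nucleolar RNA host gene Snhg9 had ratios of 3.904, 7.26, 5.16 and 14.5. Transcripts of the leukocyte list took 0.0538% of fibroblast UMIs in sham and 0.0951% in ligation.

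Fibroblast activation and matrix genes did not move as 1 block. Of 20 measured activation genes 12 were higher and 2 lower, with a median of 1.47. Timp1, an inhibitor of metalloproteinases, was at 763 and 2088 CPM. Tenascin C (Tnc) was at 57.5 and 223 CPM, and lysyl oxidase (Lox), which crosslinks collagen, at 56.8 and 159 CPM. Hyaluronan synthase Has1 was at 4.895 and 43.1 CPM. Smooth muscle actin (Acta2), a marker of myofibroblasts, went the other way, at 47.98 and 12.1 CPM.

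Of 22 matrix genes, 6 were lower and 1 higher in fibroblasts, with a median of -0.65. Col3a1 was at 2933 and 1104 CPM, a ratio of 0.376 (0.361 to 0.392). Col1a2 was at 1793 and 885 CPM and the proteoglycan lumican (Lum) at 1219 and 549 CPM. Mfap5, a microfibril protein, was the higher one, at 609 and 1313 CPM. Besides Col3a1 and Dbp, the named lower genes included Ogn at 772 and 289.5 CPM, the endoplasmic reticulum protein Rcn3 at 389 and 130.01 CPM, and Col15a1, the Wnt regulator Sfrp2 and Ephx1, with ratios from 0.315 to 0.378.

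Of 20 ribosome assembly genes in fibroblasts 15 were higher and none lower, with a median of 1.28. Nop58 was at 70.5 and 272 CPM and nucleolin (Ncl) at 579 and 1389.7 CPM. Of 27 hypoxia and glycolysis genes 9 were higher and none lower, with a median of 0.61, led by the glucose transporter Slc2a1 at 5.38 and 60.1 CPM, a ratio of 11.2 (7.12 to 18.3). Ero1l, an oxidase of the endoplasmic reticulum, was at 26.2 and 99.8 CPM, and lactate dehydrogenase (Ldha) at 349.5 and 781 CPM. Of 17 antioxidant and metal genes 7 were higher, with Txnrd1, thioredoxin reductase, at 46.3 and 172 CPM, sulfiredoxin (Srxn1) at 34.5 and 91.8 CPM and haem oxygenase (Hmox1) at 24.2 and 235 CPM.

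A cluster led by Cxcl5, Cxcl1 and Ptx3 held 17 of 376 sham and 59 of 202 ligation fibroblasts, with a median of 39225 and 19898 UMIs a cell. Without it, 187 genes were higher and 139 lower, instead of 451 and 397. Of the activation genes 8 of 18 were then higher and 4 lower (median 0.47), and of matrix genes 3 of 22 were lower (median -0.36), where 2.16% of all genes were higher and 1.61% lower. Of the other lists, 3 of 18 ribosome assembly genes, 2 of 24 hypoxia and glycolysis genes and 2 of 16 antioxidant and metal genes were then higher, with medians of 0.62, 0.20 and 0.21. Tnc was at 15.7 and 4.84 CPM, Timp1 at 514 and 474 CPM and Ccn2 at 155 and 227 CPM without it. Mt2 at 316 and 962 CPM, Mt1 at 1032 and 2634 CPM, Vegfa at 26.98 and 93.3 CPM, Hk2 at 7.25 and 49.8 CPM, Angptl4 at 58.6 and 229 CPM and Col3a1 at 3262 and 1428 CPM still differed more than 2-fold in the remaining fibroblasts. Tnc was thus lower in the remaining fibroblasts and higher over all of them.

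**Figure D3:**
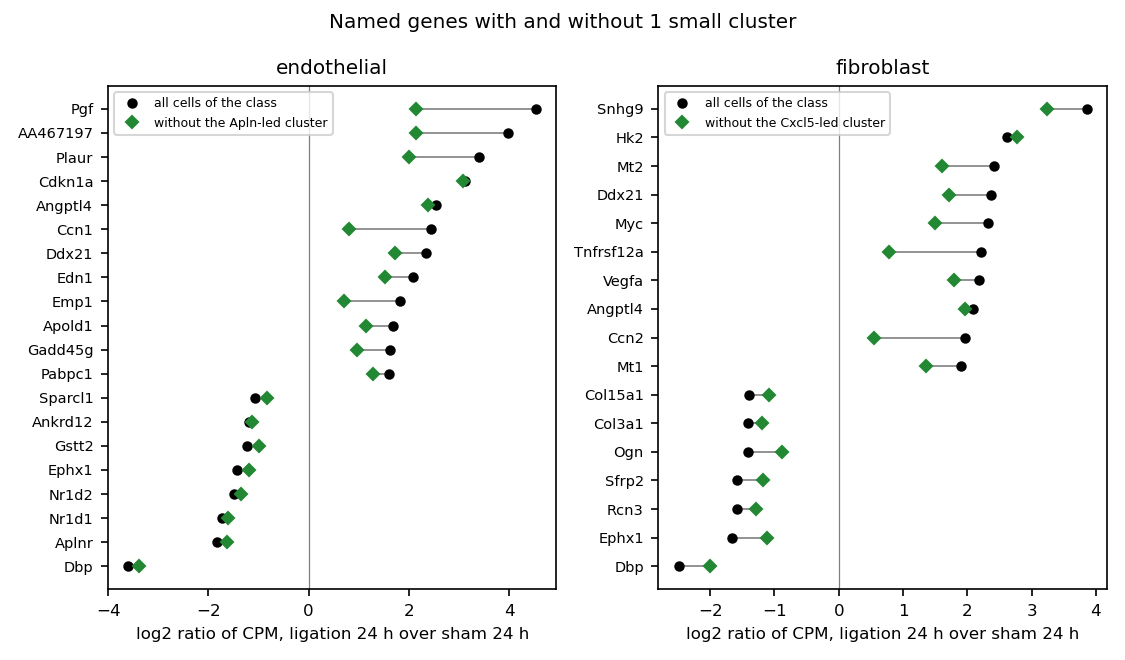
Log2 ratio of CPM, ligation over sham, of the named genes in endothelial cells and fibroblasts, over all cells of the class and without 1 small cluster (led by Apln in endothelial cells, by Cxcl5 in fibroblasts). Cdkn1a, Angptl4 and Dbp nearly keep their endothelial ratios, while Ccn1 falls from 5.42 to 1.75 on the linear scale and fibroblast Ccn2 from 3.904 to 1.46.

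In pericytes the endothelin B receptor, metallothioneins and 5 of 14 hypoxia genes were higher. Of 1916 genes measured in 85 and 50 cells, 64 (3.34%) were higher and 35 (1.83%) lower, with a median log2 ratio of -0.03. Of 9 heat shock genes none was higher or lower, and of 20 pericyte identity genes none was lower and 1 higher. At these shares over all genes, lists of this size would hold few such genes in any case. Of the identity genes, the potassium channel gene Kcnj8 was at 3126 and 2885 CPM. Abcc9, its partner subunit, was at 2364 and 2278 CPM, and the receptor Pdgfrb at 2017 and 1841 CPM. The higher one was Ednrb, the endothelin B receptor, at 194 and 855 CPM, a ratio of 4.41 (3.25 to 6.05). Endothelin-1 transcripts were higher in endothelial cells, as given above.

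Adamts1, a secreted metalloproteinase, was at 91.8 and 529 CPM, a ratio of 5.77 (3.75 to 9.14) in pericytes, and Cebpd, a stress-induced transcription factor, at 316 and 1297 CPM, a ratio of 4.1 (3.23 to 5.25). Gas1 was at 139 and 500.3 CPM and Mif at 463 and 1350.3 CPM. Metallothioneins and the cell cycle inhibitor were higher too. Mt1 was at 986 and 5625 CPM, a ratio of 5.703 (5.01 to 6.51). Mt2 was at 184 and 1418 CPM, a ratio of 7.72 (5.76 to 10.5). Cdkn1a was at 20.4 and 359 CPM, a ratio of 17.6 (7.72 to 49.5), which rests on few UMIs in sham. Of 14 glycolysis and hypoxia genes 5 were higher and none lower, with a median of 0.92: phosphofructokinase Pfkl was at 57.8 and 194 CPM, Pgk1 at 91.8 and 306 CPM and Ldha at 364 and 855 CPM. Of 5 measured genes of the IL-6 and STAT3 pathway 4 were higher, including Osmr, the oncostatin M receptor subunit, at 68.02 and 214 CPM. In neutrophils the ligand oncostatin M (Osm) was at 242 and 1119.7 CPM.

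The named lower genes in pericytes included Dbp, the retinol dehydrogenase Rdh5 at 292 and 77.7 CPM, matrix Gla protein (Mgp) at 2850.1 and 1369.7 CPM and asporin (Aspn) at 939 and 442 CPM. Of 14 contractile genes 2 were lower, Myh11 at 184 and 82.6 CPM and Sncg at 344 and 146 CPM. Transcripts of the leukocyte list made up 0.238% of UMIs in sham and 0.129% in ligation pericytes, and the neutrophil gene S100a8 was at 520.4 and 72.9 CPM. Their part in the results was not tested.

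Smooth muscle cells from the ligated hearts carried leukocyte transcripts, so values are given for all cells and without the cells that had at least 1% of UMIs from the leukocyte list. These were 6 of 53 ligation and 0 of 156 sham cells, and the list took 0.441% of UMIs in ligation and 0.0227% in sham. Over all cells 240 of 4506 genes (5.33%) were higher and 148 (3.28%) lower, and without the 6 cells 126 were higher. Cxcl3, a neutrophil and macrophage chemokine, had no UMI in sham and was at 703 CPM over all ligation cells.

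Without these 6 cells, 2.95% of the genes measured in smooth muscle were higher and 2.74% lower. Of 9 genes of the IL-6 and STAT3 pathway 4 were then higher, of 13 heat shock genes 1 and of 7 genes of p53 and cell cycle arrest 1. Osmr was at 35.5 and 133 CPM, a ratio of 3.75 (2.44 to 5.82). The cAMP phosphodiesterase Pde4b was at 32.8 and 158 CPM, a ratio of 4.82 (3.15 to 7.46). Cdkn1a was at 32.8 and 269 CPM, a ratio of 8.204 (5.58 to 12.3). The stress-induced factors Cebpd and Cebpb had ratios of 4.97 and 5.49. Of 6 measured genes of the fibroblast activation list 4 were higher, none of them at a level typical of the class by that rule. They included the matricellular genes Ccn2, at 196 and 1664 CPM, a ratio of 8.51 (7.29 to 9.96), and Thbs1, at 35.5 and 518 CPM. The tubulin Tuba1c was at 82.8 and 256 CPM and the transcription factor Klf6 at 93.7 and 222 CPM. Of 5 genes named as higher over all cells, Arpc1b at 136 and 417 CPM, Pde4b, Hspa1a at 32.8 and 143 CPM and Ddx21 at 44.6 and 163 CPM still differed more than 2-fold, while Ninj1, at 90.1 and 153 CPM, did not.

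The contractile apparatus showed few differences: of 19 genes none was higher or lower without the 6 cells, with a median of -0.19, and over all cells 1 was lower. Without the 6 cells 2.95% of all genes were higher and 2.74% lower, so a list of this size would hold few in any case. Smooth muscle actin (Acta2) was at 14776 and 16442 CPM, myosin heavy chain (Myh11) at 6645 and 4975 CPM and calponin (Cnn1) at 312 and 185 CPM. Of 14 hypoxia and glycolysis genes none was higher and 1 lower, with a median of 0.06, beside 0.92 in pericytes. The lower one was Pfkl, at 84.6 and 41.9 CPM. The lower genes named were Dbp at 201 and 19.7 CPM, Aspn at 505 and 239 CPM, Ddit4l at 121 and 39.4 CPM, the linker histone H1f0 at 125 and 46.8 CPM and Sh3bgr at 258 and 123 CPM.

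**Figure D4:**
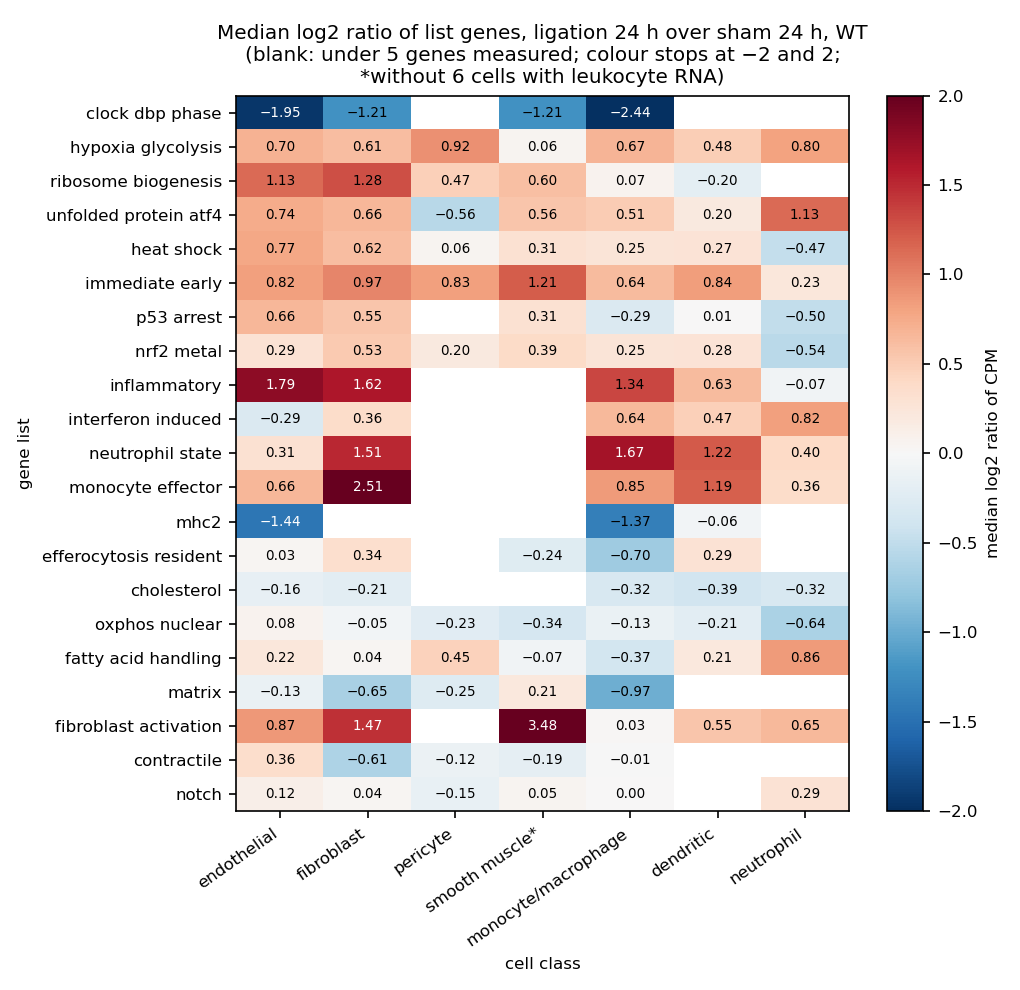
Median log2 ratio of CPM, ligation over sham, for gene lists (vertical axis) in 7 cell classes (horizontal axis), blank where fewer than 5 genes were measured; smooth muscle is shown without the 6 cells with leukocyte RNA. The clock list is lowest in monocytes and macrophages (-2.44), and hypoxia and glycolysis genes range from 0.06 in smooth muscle to 0.92 in pericytes.

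In neutrophils, surface and hypoxia genes were among those higher after ligation. Of 5982 genes measured, 307 (5.13%) were higher and 513 (8.58%) lower, with a median log2 ratio of -0.23. Taken relative to that median, 265 were lower, and the share of higher genes among all counted genes was 62.0% instead of 37.4%. Cd177, a surface protein of circulating neutrophils, was at 35.2 and 530.4 CPM, a ratio of 15.1 (11.97 to 19.2). Cish, a STAT5 target that restrains cytokine signalling, was at 13.6 and 242 CPM. Chil3, a secreted chitinase-like protein, was at 385 and 2119 CPM. Endothelial lipase (Lipg) was at 1.41 and 116 CPM, a ratio of 82.4 (28.02 to 401), from 3 UMIs in sham. The 6 others outside the hypoxia list were the acetate receptor Ffar2, the Fc receptor Fcgr2b, Ceacam10, the actin regulators Enah and Fmnl2, and Fndc3a, with ratios from 6.27 to 19.2.

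Of 26 hypoxia and glycolysis genes in neutrophils 12 were higher and none lower, with a median of 0.80. The HIF prolyl hydroxylase Egln3 was at 30.98 and 352 CPM, a ratio of 11.3 (8.87 to 14.8). Hilpda, a lipid droplet protein induced by hypoxia, was at 82.6 and 520.1 CPM. Hexokinase Hk2 was at 90.6 and 323 CPM. Ero1l and the mitophagy receptor Bnip3 had ratios of 5.36 and 3.34. Of 15 genes of the unfolded protein response 9 were higher. Its transcription factor Xbp1 was at 277 and 886 CPM, the chaperone Hspa5 at 306 and 633 CPM and the secreted factor Manf at 25.8 and 128 CPM. The median of that list was 1.13, and 0.06 in the KO pair.

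The lower neutrophil genes included surface receptors. Siglecf, a sialic acid receptor, was at 120.2 and 29.5 CPM. The pore protein gene Mpeg1 was at 579 and 146 CPM, a ratio of 0.252 (0.228 to 0.278). The lysosomal membrane protein gene Lamp1 was at 279.8 and 89.8 CPM and cathepsin A (Ctsa) at 155 and 41.6 CPM, while of 17 measured macrophage lipid and lysosome genes 4 were lower and 1 higher (median -0.41). Gngt2, Dusp2, Cd300c2 and Otulinl were the other named lower genes, with ratios from 0.204 to 0.255. The 18 inflammatory genes were split, with 3 higher and 4 lower. Cxcl3 was at 1175 and 4913 CPM, whereas Tnf was at 391 and 187 CPM and Icam1 at 257 and 109 CPM.

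The 4 neutrophil clusters, built from the same genes, were filled unequally by the 2 libraries. A cluster led by Cstdc4 and Cd177 held 47 sham and 739 ligation cells, one led by Siglecf and Cxcr4 332 and 68, one led by Acod1 and Tnf 461 and 246, and one led by interferon-induced genes 42 and 94. Within the Cd177-led cluster, 14 of 26 hypoxia genes were higher and none lower, with a median of 1.34 beside -0.03 over all genes, of which 12.8% were higher and 7.81% lower. Within the interferon cluster it was 11 of 18, with a median of 1.22 beside -0.14 over all genes, of which 12.2% were higher and 9.08% lower. Within the clusters led by Siglecf and by Acod1, 0 of 12 and 1 of 24 were higher and 1 lower in each, with medians of -0.24 and -0.22, where 2.11% and 2.4% of all genes were higher and 4.31% and 3.1% lower.

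In monocytes and macrophages, chemokine, hypoxia and haem genes were higher and genes of resident macrophages lower. Of 9759 genes measured, 249 (2.55%) were higher and 374 (3.83%) lower, with a median log2 ratio of -0.12. Relative to that median the share of higher genes among all counted was 53.9% instead of 40.0%. The neutrophil attractant Cxcl3 was at 311 and 2321 CPM, a ratio of 7.46 (7.2 to 7.74). The chemokine Ccl3 was at 69.6 and 326 CPM. Hmox1, which degrades haem, was at 389 and 1187 CPM, a ratio of 3.05 (2.95 to 3.16). Of 27 hypoxia and glycolysis genes 10 were higher and none lower, with a median of 0.67. Hilpda was at 75.1 and 383 CPM and Bnip3 at 47.5 and 190.3 CPM, and Ero1l and Hk2 had ratios of 4.07 and 2.998. The other named higher genes were Plaur, the collagenase Mmp8, the antiproliferative gene Btg1, spermine oxidase (Smox) and Tfec, a transcription factor of the MITF family, with ratios from 3.16 to 4.14.

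The lower genes of this class included genes of resident and scavenging macrophages. Selenop, a selenium carrier, was at 622 and 213 CPM, a ratio of 0.343 (0.325 to 0.361). Ms4a7 was at 178 and 64.1 CPM, and the lectin Mgl2 at 137 and 51.6 CPM. The folate receptor Folr2, Lair1, Wwp1 and Gngt2 had ratios from 0.428 to 0.464. Complement C1qa, also named by the rule, was just within 2-fold, at 1629.8 and 846 CPM. Of 13 proliferation genes 9 were lower (median -1.54), and a cluster led by Ube2c and Birc5 held 12 sham and 0 ligation cells, where a count of 0 allows up to 3 cells of the 673 in the class. The resident subset went from 223 to 64 cells, and its part in the values of the whole class cannot be told apart from a change in level.

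Within the resident macrophage subset (223 and 64 cells) antigen presentation genes were lower and glycolysis genes higher. Of 7 measured MHC class II genes 6 were lower and none higher, with a median of -2.06, where 4.54% of all genes in the subset were lower. H2-Ab1 was at 2657 and 575 CPM, a ratio of 0.216 (0.195 to 0.239), and the invariant chain Cd74 at 7463 and 3399.9 CPM. Of 21 hypoxia and glycolysis genes 13 were higher and none lower, with a median of 1.15, where 3.6% of all genes in the subset were higher, including Pgk1 at 169 and 491 CPM and Hk2 at 69.2 and 223 CPM. The mannose receptor Mrc1 was at 1469.7 and 629 CPM and Gas6, a bridging ligand for uptake of dead cells, at 402 and 131 CPM. Hmox1 was at 277 and 1141 CPM and Cdkn1a at 192 and 552 CPM.

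**Figure D5:**
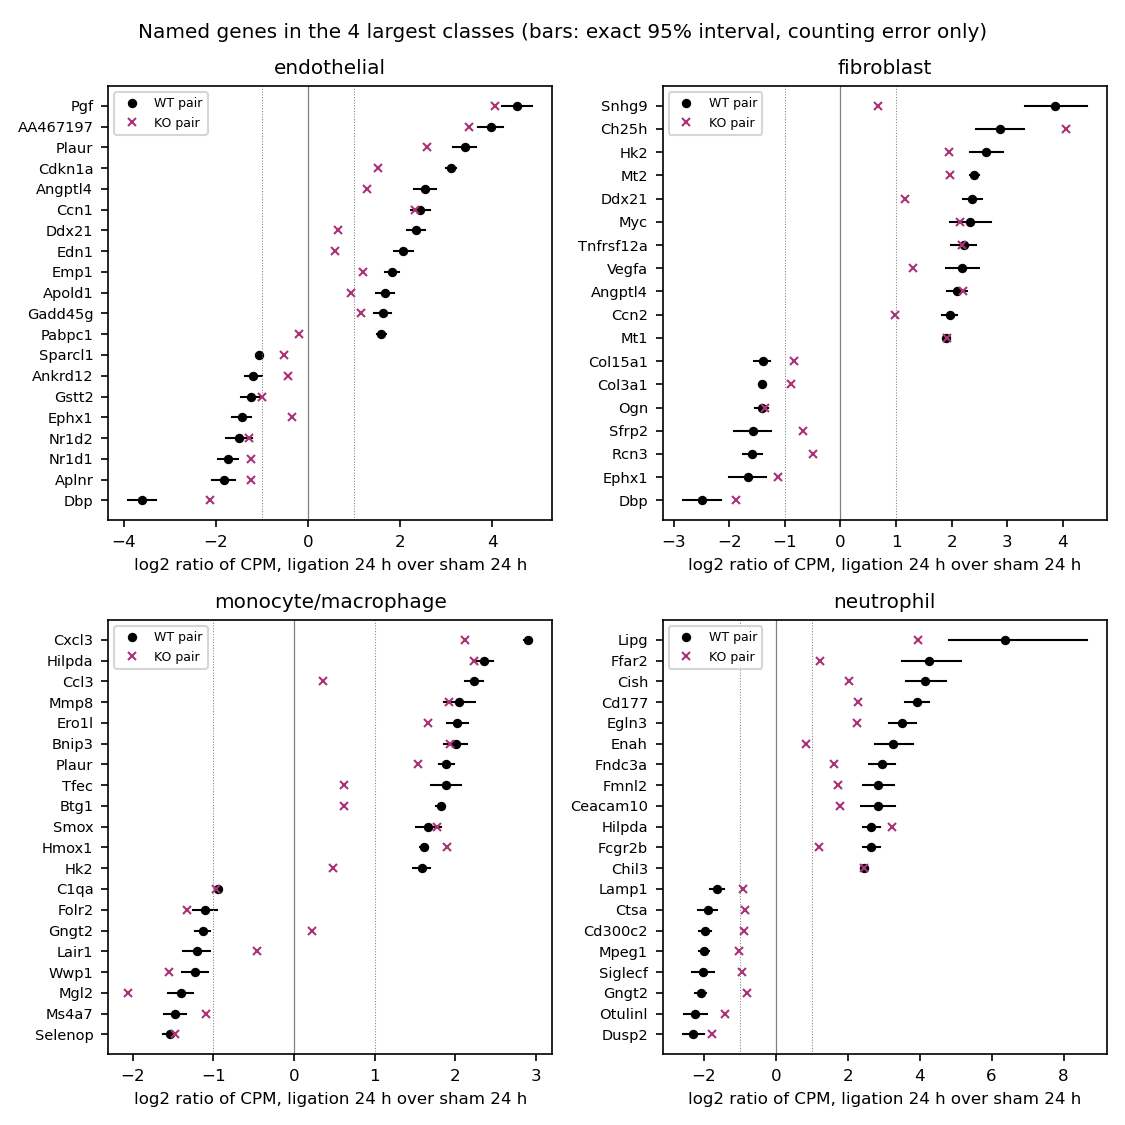
Log2 ratio of CPM, ligation over sham, for the named genes of the 4 largest classes, with exact 95% intervals that cover counting error only (black, WT pair) and the value of the KO pair (crosses). Endothelial Pgf has a WT ratio of 23.2 and a KO ratio of 16.7, and endothelial Pabpc1 has 3.02 and 0.874.

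In dendritic cells a lectin and a syndecan were among the higher genes. Of 5276 genes measured in 160 and 65 cells, 124 (2.35%) were higher and 158 (2.99%) lower, with a median log2 ratio of -0.07. None of 10 MHC class II genes was higher or lower, with a median of -0.06. At these shares over all genes, a list of this size would hold few such genes in any case. In the resident macrophage subset 6 of 7 were lower, with a median of -2.06. The lectin Cd209a was at 209 and 705 CPM, a ratio of 3.37 (2.96 to 3.84). The proteoglycan syndecan-4 (Sdc4) was at 71.2 and 312 CPM. The other 3 named higher genes, Clec4n, coagulation factor X (F10) and Fcgr2b, had ratios from 2.52 to 3.05. Irf8, a transcription factor of dendritic cells and monocytes, was at 226 and 94.7 CPM, and cyclin D1 (Ccnd1) at 187 and 71.6 CPM. Ckb, Mgl2 and Smpdl3a were the other named lower genes, with ratios from 0.375 to 0.453. Of 18 monocyte effector genes 10 were higher, 9 of them at under 0.25 of the level in the class where they are highest or in too few cells, and the part of RNA from monocytes was not tested.

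T and cytotoxic lymphocytes differed in naive and effector genes. Of 1409 genes measured in 24 and 75 cells, 101 (7.17%) were higher and 66 (4.68%) lower, with a median log2 ratio of -0.01. Of 13 measured genes of the T and natural killer list 4 were higher and 6 lower. Lef1, a transcription factor of naive T cells, was at 47.5 and 374 CPM, a ratio of 7.87 (3.73 to 19.9). The homing receptor Ccr7 was at 88.3 and 416 CPM. S1pr1, needed to leave lymph nodes, was at 67.9 and 354 CPM. These are genes of naive and recirculating cells, and Tcf7, of the same kind, had a ratio of 2.098. Pik3ip1 was at 13.6 and 151 CPM, a ratio of 11.1 (2.95 to 93.96). Rflnb was at 6.79 and 129 CPM, a ratio of 18.97 (3.26 to 764). Trib2 was at 6.79 and 146 CPM, a ratio of 21.5 (3.72 to 864). These last 3 rest on 1 or 2 UMIs in sham. The chemokine Ccl5 was at 4244 and 718 CPM, a ratio of 0.169 (0.147 to 0.195). The granzyme Gzma was at 1609 and 337 CPM, and the receptor Klrk1 at 333 and 52.02 CPM. Effector and natural killer genes were thus lower, and Nkg7, Il2rb, Id2 and AW112010 had ratios from 0.246 to 0.361. The T cell receptor subunit Cd3d was at 604 and 614 CPM. A different mix of naive T cells and cytotoxic cells in the cluster and a change in level cannot be told apart. Macrophage transcripts were higher in the 24 sham cells, with Fn1 at 638 and 84.2 CPM, and their part was not tested.

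B cells rested on 14 sham cells. Of 1298 genes measured, 140 (10.8%) were higher and 33 (2.54%) lower, with a median log2 ratio of 0.04. Cd79a, a B cell receptor subunit, was at 3399 and 4302 CPM. The antiproliferative gene Btg1 was at 767 and 3426 CPM, a ratio of 4.47 (3.51 to 5.78). The homing receptor Cxcr4 was at 44.4 and 282 CPM, a ratio of 6.34 (2.41 to 23.7). The kinase Stk17b had a ratio of 4.1. The phosphatase Dusp2 was at 33.3 and 309 CPM, a ratio of 9.26 (3.096 to 45.5), from 3 UMIs in sham. Vps37b had no UMI in sham and 144 CPM in ligation, a ratio of 4.33 when the sham count was set to 3. The genes Ppib, H2-Eb1, Eef1b2 and Tpt1, which the rule named on the lower side, were within 2-fold, with ratios from 0.635 to 0.761. Of 9 measured genes of the leukocyte list 7 were higher, none of them near its level in myeloid cells, with Lyz2 at 33.3 and 852 CPM, and the part of that RNA was not tested.

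Lymphatic endothelial cells, 41 and 17, differed in the chemokine that draws dendritic and T cells. Of 2253 genes measured, 65 (2.89%) were higher and 83 (3.68%) lower, with a median log2 ratio of -0.02. Ccl21a was at 6592 and 843 CPM, a ratio of 0.128 (0.1098 to 0.148), although its near-identical copies make the gene assignment uncertain. The hyaluronan receptor Lyve1 was at 858 and 1722 CPM. Neurotensin (Nts) was at 904 and 415 CPM. The lineage factor Prox1, at 433 and 335 CPM, stayed within 2-fold. The other named lower genes, Npr1, Rcn3, Sgk1 and Fxyd6, had ratios from 0.175 to 0.339. Lipocalin (Lcn2) was at 921 and 4836 CPM, a ratio of 5.25 (4.69 to 5.89). Beside it, the neutrophil gene S100a8 was at 21.7 and 2878 CPM and S100a9 at 6.501 and 3328 CPM, and the part of neutrophil RNA was not tested. Pabpc1, Plaur, Ddx21 and Anxa3 were also named as higher, with ratios from 3.04 to 3.57.

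Platelet barcodes gave 382 measured genes, of which 12 (3.14%) were higher and 9 (2.36%) lower, with a median log2 ratio of -0.11. Relative to that median the share of higher genes among all counted was 72.7% instead of 57.1%. Pf4, platelet factor 4, was at 24650.5 and 28482 CPM. The glucose transporter Slc2a3 was at 390.4 and 893 CPM, a ratio of 2.29 (1.43 to 3.83). Traip was at 37.2 and 402 CPM, a ratio of 10.8 (2.85 to 91.5), from 2 UMIs in sham. Gsta2 had a ratio of 3.73, while Hist1h1c and Ptpn18, also named by the rule, were within 2-fold. On the lower side Pfn1 was at 2324 and 1123 CPM. Actg1, Thbs1 and Rap1b were named but within 2-fold, with ratios from 0.516 to 0.571. With barcodes of at least 1000 UMIs, the log2 ratios of Actg1 and Pfn1 were 0.12 and 0.046, so their direction turned.

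Some genes differed in the same direction in many classes. Over the 8 classes with at least 30 cells in both libraries, 110 genes were higher in at least 2 classes at a level typical of the class (at least 0.25 of the highest class, with UMIs in at least 10% of cells), 34 in at least 3 and 5 in at least 5. These 5 were Ddx21, the N-myristoyltransferase Nmt1, Pabpc1, the cold-induced RNA-binding protein gene Rbm3 and the amino acid transporter Slc38a2. Of the genes counted as lower, 38 were lower in at least 2 classes and 3 in at least 4, and those 3 were Dbp, Nr1d1 and Nr1d2. Pabpc1 had ratios of 3.02 in endothelial cells, 2.63 in fibroblasts, 2.63 in pericytes and 2.36 in neutrophils. In the KO pair they were 0.874, 1.22, 0.976 and 0.939. Nmt1, at 2.21 and 3.44 in WT endothelial cells and pericytes, had KO ratios of 1.07 and 1.17, and Slc38a2, at 2.699 and 2.43 in endothelial cells and neutrophils, had 1.17 and 0.927.

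The KO pair, made of 2 other pooled libraries that share no sample with the WT pair, gives the only second reading of ligation at 24 h, in another genotype. Of the 150 genes named over 11 classes, 130 had the same direction there: 19 of 20 in endothelial cells, 20 of 20 in fibroblasts, 19 of 20 in monocytes and macrophages, 20 of 20 in neutrophils and 10 of 10 each in pericytes and T cells. In smooth muscle and dendritic cells it was 8 of 10 each, in B and lymphatic cells 6 of 10 each and in platelets 4 of 10. The last 3 classes lie near an even split. No share of genes with the same direction was taken over all genes. A gene named in several classes, such as Dbp, counts once in each. Of all WT genes counted as higher in endothelial cells and measured in both, 48.0% (169 of 352) were also at least 2-fold higher in the KO pair, where 3.73% of all genes were. For lower endothelial genes it was 17.5% (39 of 223), where 1.69% of all genes were. In fibroblasts the shares were 50.7% of higher and 42.8% of lower genes (background 4.2% and 9.62%), in monocytes and macrophages 37.4% and 61.8% (1.69% and 7.56%), and in neutrophils 33.3% and 15.1% (2.83% and 3.6%). Genotype and library differ together between the pairs, and no difference between them was tested.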

How the data were processed

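Droplet RNA counts were read from 2 libraries, WT sham and WT ligation at 24 h, each a pool of 4 mice, with the KO 24 h pair beside them. The deposited matrices hold UMI counts per gene and cell, whole numbers with no normalization, and the submitters' processing notes name Cell Ranger 6.0.0 and the mm10 build. The annotation, and any filter by the authors other than the one the barcode numbers show, are not given in the sources used here. All 6 libraries list 32285 genes.

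Cells with at least 200 genes and at most 20% mitochondrial UMIs were kept. In each library the barcodes with the highest scrublet doublet scores (scanpy 1.11.5) were set aside. Their number was fixed by an expected rate of 0.8% per 1000 cells, not by the threshold of scrublet. Cells were scaled to 10000 UMIs and clustered from 2000 variable genes (without mitochondrial, ribosomal, haemoglobin and Trpm4 genes), 30 principal components and 20 neighbours by the Leiden method at resolution 1 (leidenalg 0.10.2, igraph 0.11.9, scikit-learn 1.9.0), and clusters were named by marker genes. UMIs were summed per class and library. Ratios have exact conditional Poisson intervals, shares exact binomial intervals and differences of shares Newcombe intervals, all at 95% (scipy 1.17.1, numpy 2.4.6, pandas 2.3.3, Python 3.11.15, figures with matplotlib 3.10.9). UMIs mark molecules, so these intervals cover counting error and nothing between animals or libraries. A ratio against a library with 0 UMIs was taken at 3 counts. No statistical test was run, because each group has 1 library.

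Named genes were ranked by the bound of the ratio's interval nearest 1, among genes with at least 50 UMIs and 100 CPM in the higher library that reached 0.25 of the level of the highest class, that had UMIs in 10% of cells and that drew at most 20% of UMIs from 1 cell. The rule does not require 2-fold. A few genes that it named are not reported here. Up to 12 higher and 8 lower genes were taken in the largest classes and 5 of each in the others, leaving out unnamed, mitochondrial and ribosomal protein genes. Beside these, up to 4 members of a list and class markers were named, and other genes were given as list members or were singled out after their values were seen. The members and the 41 gene lists were chosen with earlier results of these data known.

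The procedure was tested on simulated counts: of 193 genes changed in endothelial cells and 157 in pericytes, 100% passed 2-fold, and 0.183% and 0.457% of unchanged genes did. The planted changes were well past 2-fold, so that they passed was nearly fixed in advance. The counts were drawn with counting error only, so these rates cover no spread between cells, mice or pools. Alternatives were other limits on UMIs, mitochondrial share and depth, no doublet removal, clustering of the WT pair alone, another resolution, equal weight per cell and centring on the median gene. Leaving out 1 small cluster or the cells with leukocyte RNA was chosen after seeing the data, as was the account of the B, T and lymphatic classes, which have under 30 cells in 1 library. Promoter sequences were taken from the RefSeq table for GRCm38.p6, the build that mm10 names.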

Additional observations from a re-analysis of the deposited data

Results flagged for a closer look

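The WT and KO pairs differed in direction, with both counting intervals clear of no change, for 10 results. The difference between the pairs was not tested, since each group has 1 library. Among cell classes, the dendritic share differed by -1.11 points in the WT pair and by 1.25 points in the KO pair, although among leukocytes alone it was lower after ligation in both pairs, by -4.35 and -1.96 points. The platelet share differed by 3.84 points in the WT pair and by -0.396 points in the KO pair.

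Among named genes, the ratio of Cd209a in dendritic cells was 3.37 in WT and 0.712 in KO. The ratio of Pabpc1 in endothelial cells was 3.02 in WT and 0.874 in KO. Gngt2 in monocytes and macrophages had 0.456 and 1.16, and Actg1 in platelets 0.516 and 1.23. Hspa1a in smooth muscle had 4.06 and 0.551. In lymphatic endothelial cells, 41 and 17 in the WT pair, Rcn3 had 0.243 and 2.22. In B cells, which rest on 14 WT sham cells, H2-Eb1 had 0.724 and 1.30, and Tpt1 0.761 and 1.37.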

How the results depend on the processing

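No paired analysis was possible because each group is 1 pooled library with no replicate number. Over the alternatives, 60 of 71 class shares, 138 of 188 gene counts, 2281 of 2387 list medians and 1016 of 1180 named genes moved by less than the limits set for them. Shares moved as follows, in points: the endothelial difference was -25.42 without doublet removal, -26.55 when the WT pair was clustered alone and -11.36 at 10% mitochondrial UMIs or less. At 10% the others were -3.05 for fibroblasts (-2.49 with the WT pair alone), -4.6 for monocytes and macrophages, 14.06 for neutrophils, -2.09 for dendritic cells and 12.32 for leukocytes. At 1000 UMIs or more they were 0.85 for platelets and 24.22 for leukocytes. Counts of genes past 2-fold depended most on the UMI minimum, as higher and lower. At 20 UMIs there were 248 and 537 in dendritic cells, 266 and 188 in pericytes, 54 and 58 in platelets and 545 and 482 in smooth muscle, and the lower genes numbered 452 (endothelial), 690 (fibroblast), 720 (monocyte and macrophage) and 895 (neutrophil). At 200 UMIs there were 40 and 14 in dendritic cells, 183 and 75 for endothelium, 227 and 127 for fibroblasts, 148 and 111 in monocytes and macrophages, 180 and 151 in neutrophils, 11 and 3 in pericytes, 1 and 1 in platelets and 58 and 20 in smooth muscle. Without doublet removal there were 191 higher in endothelial cells, 174 and 79 in pericytes and 26 and 39 in platelets. With the WT pair clustered alone there were 169 higher for endothelium, 178 and 144 for fibroblasts and 133 higher in smooth muscle. At resolution 0.5 there were 152 and 91 in pericytes and 130 higher in smooth muscle. At 1000 UMIs a cell there were 148 and 103 in pericytes, 21 higher in platelets and 127 in smooth muscle. Equal weight per cell gave 572 lower in monocytes and macrophages, and centring gave 265 lower in neutrophils. Leaving out the Apln-led cluster gave 185 higher in endothelial cells, leaving out the Cxcl5-led cluster 187 and 139 in fibroblasts, and leaving out cells with leukocyte RNA 126 higher in smooth muscle. Directions turned for 2 genes and 3 lists. In platelets at 1000 UMIs the log2 ratio was 0.12 for Actg1 and 0.046 for Pfn1. The endothelial MHC class II median was 1.92 without doublet removal. In smooth muscle the median of the efferocytosis list was -0.28 at resolution 0.5, -0.47 without doublet removal, -0.26 with the WT pair alone, -0.27 at 1000 UMIs and -0.24 without cells with leukocyte RNA, and that of the macrophage lipid and lysosome list -0.051, -0.16, -0.059, -0.035 and -0.027. The cause was not tested.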

Other observations

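Metallothionein genes were higher in more classes than those described above. Mt1 was at 297 and 986 CPM in lymphatic endothelial cells and 50.97 and 157 CPM in endothelial cells, and Mt2 at 179.9 and 968 CPM and 14.2 and 66.8 CPM. In neutrophils Mt1 was at 74.2 and 74.9 CPM and did not differ 2-fold, and in monocytes and macrophages it was at 1071 and 1512 CPM.

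Cdkn1a had a ratio above 1 in 7 of 7 classes examined, from 1.55 in monocytes and macrophages to 17.6 in pericytes. It was 2.77 in fibroblasts, 2.25 in neutrophils, 2.48 in dendritic cells and 8.64 in endothelial cells. In smooth muscle it was 9.34 over all cells, including the 6 with leukocyte RNA. It was at least 2-fold higher in 6 classes, and in 3 of them at a level typical of the class. The small nucleolar RNA host gene Snhg9 had ratios of 7.64 in endothelial cells, 14.5 in fibroblasts, 8.76 in monocytes and macrophages and 9.59 in dendritic cells, and KO ratios of 1.29, 1.603, 1.18 and 1.21. These genes were singled out after their values were seen, and the difference between the pairs was not tested.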
